A study of Arabidopsis thaliana with 18 samples.

Results

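The clade A protein phosphatases 2C (PP2Cs) of abscisic acid (ABA) signalling were described in *Arabidopsis thaliana* seeds, before and during germination. The 9 members were taken by their gene identifiers, which are ABI1 (AT4G26080), ABI2 (AT5G57050), HAB1 (AT1G72770), HAB2 (AT1G17550), AHG1 (AT5G51760), AHG3 (AT3G11410, also called PP2CA), HAI1 (AT5G59220), HAI2 (AT1G07430) and HAI3 (AT2G29380). They are 9 of the 27587 genes in the table, and their 18 transcripts are among 48268. RNA of entire seeds was sequenced from 18 libraries, with 3 replicates in each of 6 groups. The groups were *ros1-4* and Col-0 as mature dried seeds, *ros1-4* and Col-0 at germination stage II, when the seed coat has ruptured and the radicle shows as a point, and *ros1-4* and Col-0 at germination stage IV, when the radicle has begun to extend. In *ros1-4*, 1 mutant allele in the Col-0 background, a T-DNA disrupts ROS1, whose enzyme removes DNA methylation. All 6 groups came from plants kept at 23 °C during seed production, the control temperature of the study, and each library was made from pooled seeds. Such bulk RNA holds embryo, endosperm and seed coat together, so fewer cells of a type and less RNA per cell cannot be told apart.

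ABA keeps a seed dormant and holds back its germination. The hormone is bound by the PYR/PYL/RCAR receptors, which then seize the clade A PP2Cs. Free of ABA, the phosphatases dephosphorylate SnRK2 kinases and keep them off, whereas captured phosphatases release the kinases, which in turn phosphorylate bZIP transcription factors such as ABI5 and the ABFs. The phosphatases are thus negative regulators of the pathway, and several of their genes are themselves induced by ABA. AHG1 and AHG3 also bind DOG1, the dormancy protein of seeds, and AHG1 is known as the phosphatase that the receptors inhibit poorly. The study asked how DNA methylation bears on seed development and germination, and compared *ros1-4* with Col-0 for that purpose.

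The members lie on all 5 chromosomes. In the TAIR10.1 assembly, ABI1 is at chr4:13219915-13222376 on the minus strand, ABI2 at chr5:23087122-23089631 on the plus strand, HAB1 at chr1:27389948-27393327 (plus), HAB2 at chr1:6034270-6037398 (plus), AHG1 at chr5:21026805-21029188 (plus), AHG3 at chr3:3583782-3585850 (minus), HAI1 at chr5:23894404-23896939 (minus), HAI2 at chr1:2280746-2282828 (minus) and HAI3 at chr2:12608675-12610350 (plus). The transcript lengths of the RefSeq models equalled those in the deposited table for 18 of 18 transcripts. Only ABI1 overlaps another annotated gene, the kinase gene MEK1 on the opposite strand, by 22 bases. Translated from the first transcript of each gene, ABI1 and ABI2 were identical at 79.8% of aligned residues, HAB1 and HAB2 at 74.8% and HAI2 and HAI3 at 70.7%. HAI1 was identical to HAI2 at 63.5% and to HAI3 at 64.6%, and AHG3 was identical to the HAI proteins at 56.2% to 60.9%. AHG1 had no close relative among them, with 36.6% (HAB2) to 47.0% (HAI3).

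The region just upstream of the genes was read because ABA-responsive bZIP factors bind a short element, the ABRE, whose core is ACGTG. The 250 bases before the annotated start of each gene, none of which overlapped an annotated exon, were searched on both strands for the ABRE core, for the G-box CACGTG, which contains the core on both strands and so counts as 2 overlapping core matches, and for CATGCA, the RY element that B3 factors such as ABI3 bind. The windows of AHG1 and HAI2, the most abundant members in mature seeds, of AHG3, which held the most core matches, and of ABI1, the most abundant member at stage IV, are shown 5′ to 3′ from RefSeq TAIR10.1, with matches in capitals.
AHG1, chr5:21026555-21026804, plus strand: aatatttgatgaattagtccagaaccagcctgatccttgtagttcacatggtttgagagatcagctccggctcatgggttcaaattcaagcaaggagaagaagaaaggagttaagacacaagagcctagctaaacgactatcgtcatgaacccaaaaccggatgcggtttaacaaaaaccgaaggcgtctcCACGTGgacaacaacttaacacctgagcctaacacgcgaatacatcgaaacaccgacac
HAI2, chr1:2282829-2283078, minus strand: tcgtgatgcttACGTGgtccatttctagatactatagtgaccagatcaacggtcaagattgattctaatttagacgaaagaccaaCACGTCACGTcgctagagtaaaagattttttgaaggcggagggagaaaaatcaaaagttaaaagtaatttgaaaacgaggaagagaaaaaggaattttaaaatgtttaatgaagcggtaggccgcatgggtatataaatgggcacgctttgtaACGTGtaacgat
AHG3, chr3:3585851-3586100, minus strand: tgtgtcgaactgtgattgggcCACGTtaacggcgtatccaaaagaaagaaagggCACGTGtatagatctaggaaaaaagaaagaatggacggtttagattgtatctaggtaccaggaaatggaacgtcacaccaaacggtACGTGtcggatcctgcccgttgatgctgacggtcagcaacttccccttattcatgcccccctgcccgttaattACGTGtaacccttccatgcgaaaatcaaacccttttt
ABI1, chr4:13222377-13222626, minus strand: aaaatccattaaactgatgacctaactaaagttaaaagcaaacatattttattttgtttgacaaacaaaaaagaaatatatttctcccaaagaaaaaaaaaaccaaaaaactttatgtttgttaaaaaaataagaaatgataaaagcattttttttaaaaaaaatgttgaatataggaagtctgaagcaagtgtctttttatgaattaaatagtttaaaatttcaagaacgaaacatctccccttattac
The ABRE core was present in the windows of 6 of the 9 genes, against 22.9% of the 27443 windows of all nuclear protein-coding genes. It stood at 2 or more places in 5 of the 9 (AHG1, AHG3, HAB2, HAI2 and HAI3), against 8.84% of all windows. AHG3 had matches starting 229, 196, 195, 110 and 37 bases before its start, HAI2 at 239, 165, 160 and 12 bases, and AHG1 at 59 and 58 bases, both within its single G-box. The G-box was found in the AHG1 and AHG3 windows, against 6.49% of all windows, and the RY element in HAB2 alone, against 8.43%. The windows of ABI1, ABI2 and HAI1 held none of these letters. A match describes the letters of the window and does not show that a factor binds there.

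**Figure D1:**
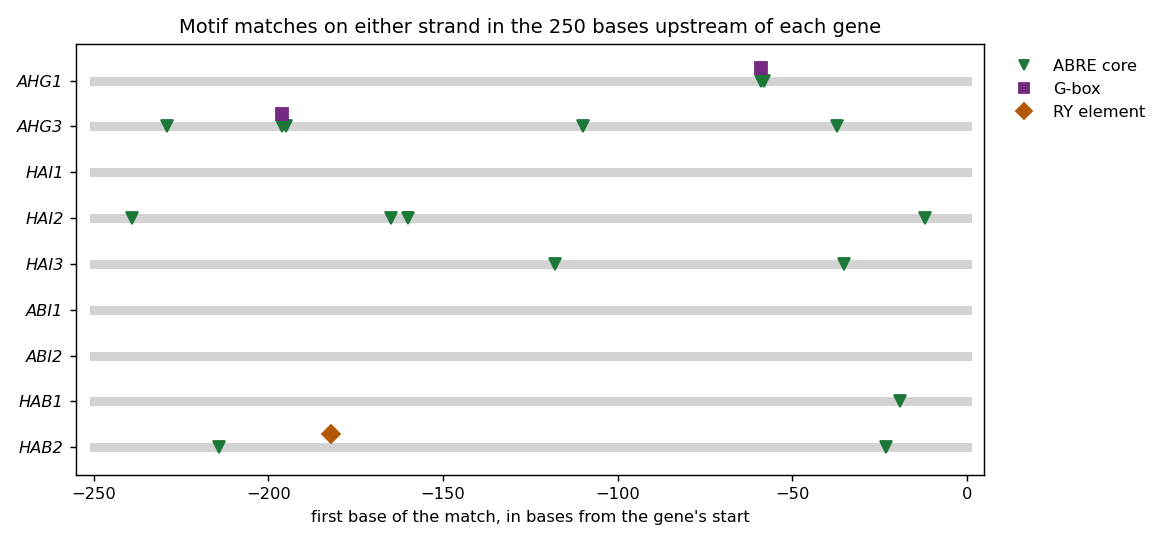
Matches of the ABRE core (triangles), the G-box (squares) and the RY element (diamonds) in the window upstream of each of the 9 genes. The horizontal axis gives the first base of a match in bases before the gene's annotated start, over the 250 bases upstream. AHG3 and HAI2 carry the most core matches, and the ABI1, ABI2 and HAI1 windows carry none.

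The libraries held 18737837 to 20787603 counts, with a median of 19306864, and the *ros1-4* libraries of both germination stages were the deepest. ROS1 went against the genotype labels. It had 1219, 1466 and 1466 counts in the mature libraries labelled *ros1-4*, against 2578, 2455 and 2547 in those labelled Col-0, but the stage II libraries labelled *ros1-4* held 1286, 1256 and 1221 counts, against 256, 273 and 281 in those labelled Col-0, and those of stage IV 1134 to 1331 counts, against 252 to 312 in those labelled Col-0. The position of the insertion was not used here, and the counts cover the whole gene. In what follows, *ros1-4* and Col-0 therefore stand for the libraries so labelled. The seed storage markers (cruciferins, a 2S albumin and oleosins, 6 genes) took 204300 to 234900 CPM (counts scaled to the same library total) in mature *ros1-4* seeds and 192500 to 197500 CPM in mature Col-0 seeds. At stage II they took 1703 to 2529 CPM in *ros1-4* and 239 to 340 CPM in Col-0. The scaling changed the values: against TMM, the main scaling, library size alone moved the median log2 difference over all genes by 1.35 in *ros1-4* and by 0.97 in Col-0 for stage II against mature seeds, and by -0.34 for *ros1-4* against Col-0 in mature seeds. The part of storage mRNA in these shifts was not tested. Values by both scalings are given for these comparisons. Replicate 3 of Col-0 at stage II stood apart from replicates 1 and 2, with 18.5 and 18.4 as the chi-square per gene against 5.78 between those 2 replicates, and values without it are given beside several results of that stage. Stage IV libraries varied too. Replicate 1 of Col-0 had 15.8 and 16.4 against replicates 2 and 3, with 9.02 between those, and replicates 1 and 3 of *ros1-4* had 13.5. Of 2 pollen markers, MGH3 had 0 to 2 counts in each mature library, and VGD1 carried nearly all of their sum, which was 49.3 to 132 CPM in mature *ros1-4* seeds and 61.6 to 83.1 CPM in mature Col-0 seeds, and at most 0.53 CPM in any germination library.

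In mature seeds AHG1 was by far the most abundant member. On the TPM scale, which is per transcript length and sums to the same total in each library, AHG1 averaged 383 ± 7.0 TPM in *ros1-4* and 387 ± 9.8 TPM in Col-0 (SD, n = 3 each). HAI2, one of the highly ABA-induced phosphatases, followed with 51.9 ± 5.5 TPM in *ros1-4* and 52.6 ± 3.6 TPM in Col-0. HAI3 averaged 25.9 ± 3.9 TPM in *ros1-4* and 28.7 ± 0.89 TPM in Col-0, and AHG3 averaged 20.5 ± 2.3 TPM in *ros1-4* and 26.0 ± 3.1 TPM in Col-0, so that HAI3 and AHG3 did not differ beyond their spread in Col-0, and their order turned in both genotypes when effective lengths replaced annotated ones. ABI2, HAB1 and HAB2 lay together, between 15.1 and 17.0 TPM in *ros1-4* and between 17.1 and 18.7 TPM in Col-0. ABI1, named after an ABA-insensitive mutant, averaged only 4.00 ± 0.36 TPM in *ros1-4* and 6.49 ± 0.40 TPM in Col-0, and HAI1 was lowest, with 3.24 ± 0.48 TPM in *ros1-4* and 3.37 ± 0.29 TPM in Col-0. In *ros1-4* the ABI1 and HAI1 libraries overlapped.

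**Figure D2:**
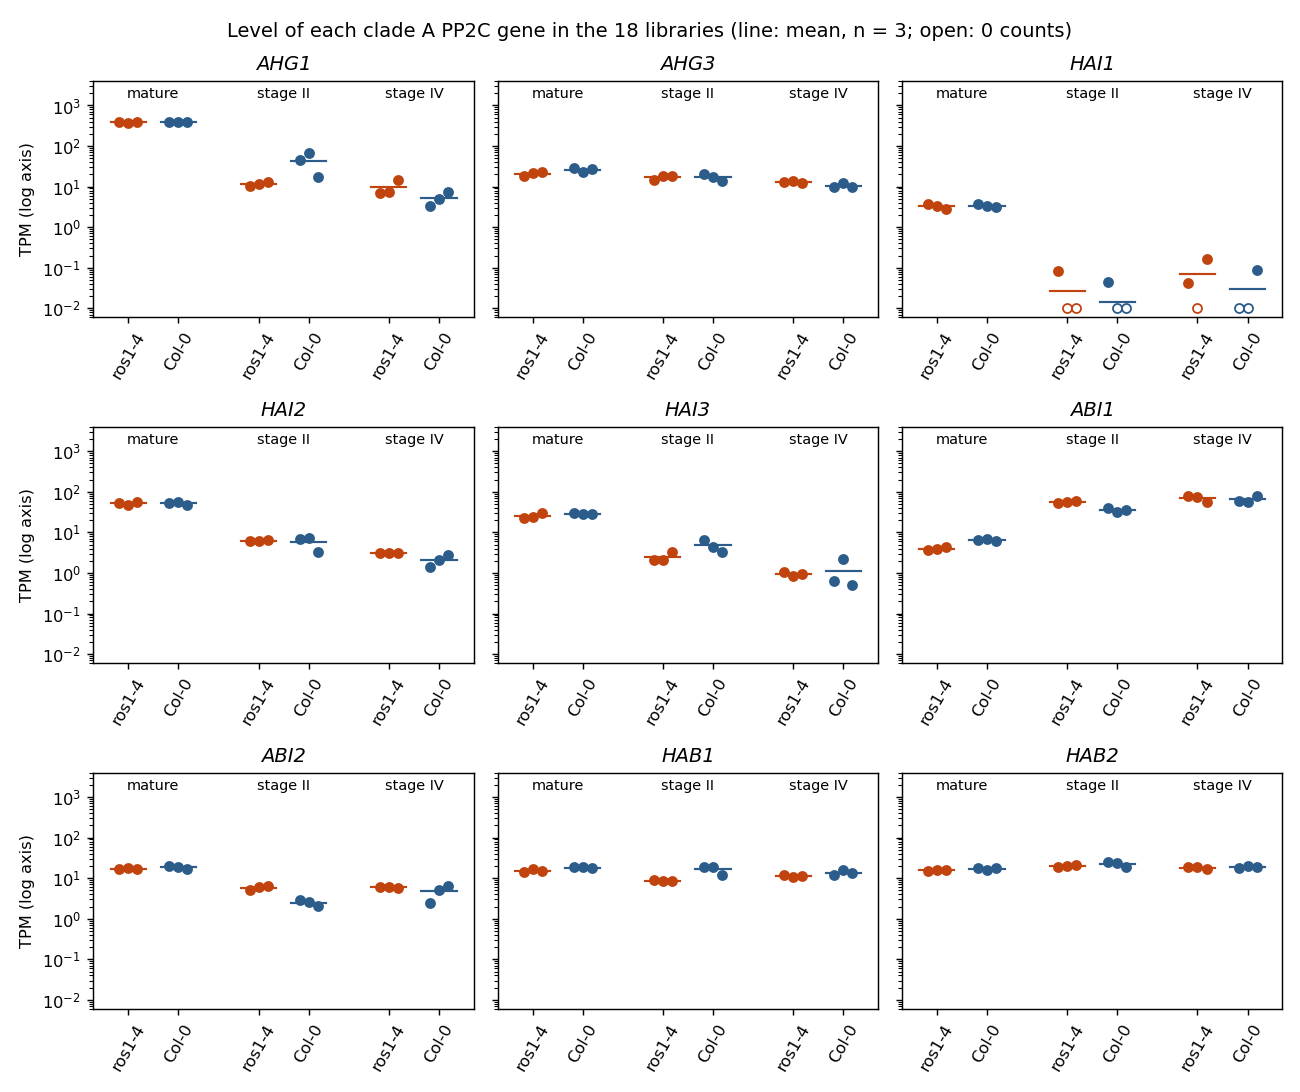
TPM of each member in every library on a log axis, with *ros1-4* (orange) left of Col-0 (blue) at each stage, points for replicates 1 to 3 from left to right, lines for the mean of 3 and open circles for libraries with 0 counts. AHG1 stands at 375 to 399 TPM in mature seeds, ABI1 at 54.5 to 57.9 TPM in *ros1-4* and 32.5 to 40.4 TPM in Col-0 at stage II, far above its mature points, and HAI1 is near 0 at both germination stages.

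The order of the members turned over during germination. As a share of the summed TPM of the 9 genes, AHG1 held 70.1% to 72.6% of the sum in mature *ros1-4* seeds and 68.1% to 70.7% in mature Col-0 seeds. At stage II AHG1 held 8.47% to 9.80% in *ros1-4* and 16.4% to 38.7% in Col-0, and at stage IV 4.86% to 12.5% in *ros1-4* and 3.14% to 5.45% in Col-0. ABI1 took the opposite course. Its share was 0.69% to 0.80% in mature *ros1-4* seeds and 1.08% to 1.25% in mature Col-0 seeds, 43.0% to 45.3% in *ros1-4* and 18.8% to 33.3% in Col-0 at stage II, and 46.1% to 56.9% in *ros1-4* and 47.4% to 56.7% in Col-0 at stage IV. HAB2 was next to ABI1 at stage IV, with 13.3% to 13.9% in *ros1-4* and 14.0% to 16.9% in Col-0. The summed TPM of the 9 genes was 524 to 551 in mature *ros1-4* seeds and 552 to 564 in mature Col-0 seeds, 120 to 135 in *ros1-4* and 106 to 173 in Col-0 at stage II, and 120 to 140 in *ros1-4* and 108 to 138 in Col-0 at stage IV.

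**Figure D3:**
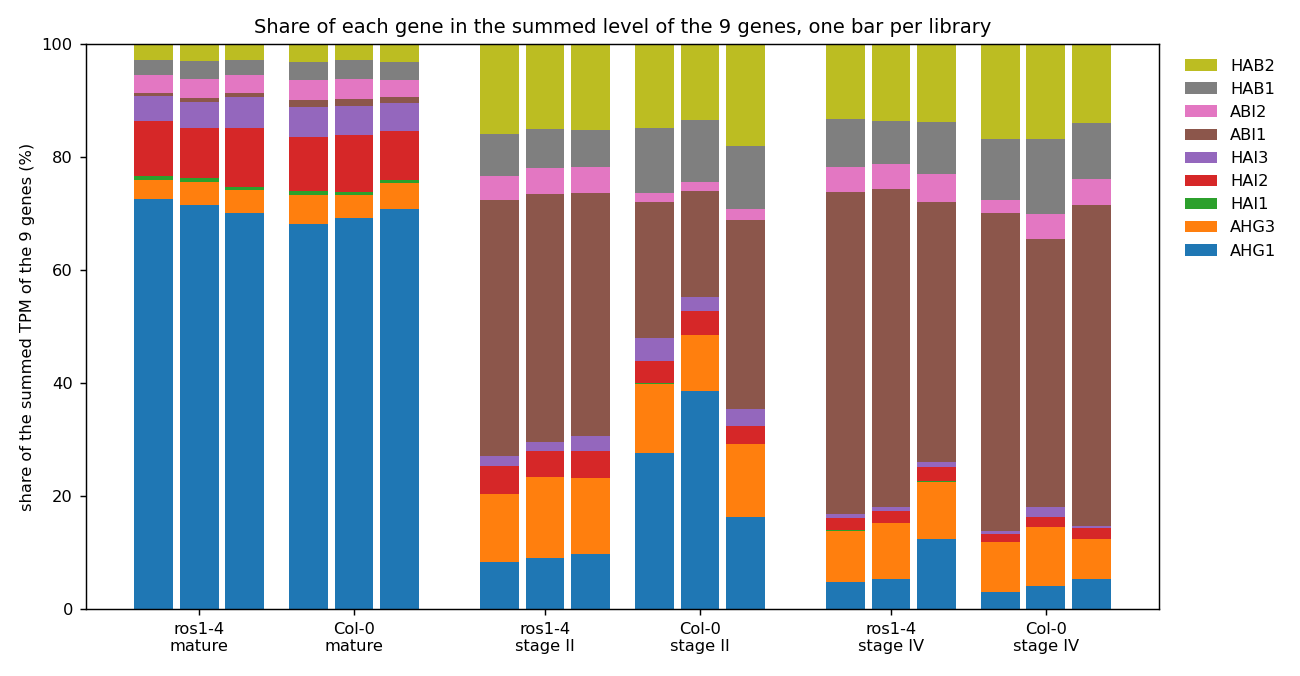
Share of each member in the summed TPM of the 9 genes, in percent, with 1 bar per library and *ros1-4* left of Col-0 at each stage. AHG1 (blue, at the bottom) fills 68.1% to 72.6% of the mature bars, and ABI1 (brown) fills 46.1% to 56.9% of the stage IV bars.

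The ratio of AHG1 to ABI1 within a library depends on no scaling between libraries. Per length it was 87.8 to 105 in mature *ros1-4* seeds and 55.3 to 65.3 in mature Col-0 seeds, 0.19 to 0.23 in *ros1-4* and 0.49 to 2.06 in Col-0 at stage II, and 0.085 to 0.27 in *ros1-4* and 0.056 to 0.096 in Col-0 at stage IV. The genotypes did not overlap in mature seeds or at stage II, with the ratio higher in *ros1-4* in mature seeds and lower at stage II, and they overlapped at stage IV. The ratio was chosen after its values were seen, and it carries no test.

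Germination to stage II was accompanied by a rise of ABI1 and a fall of most other members. In *ros1-4*, 9 of 9 members passed the test (adjusted p under 0.05), 1 higher and 8 lower at stage II than in mature seeds, where 89.7% of all genes tested passed, 50.3% higher and 39.3% lower. In Col-0 it was again 9 of 9, 1 higher and 8 lower, where 88.3% of all genes passed, 47.3% higher and 41.0% lower. The median log2 fold change of the members was -3.14 in *ros1-4* and -3.75 in Col-0, against medians over all genes tested of 0.33 in *ros1-4* and 0.17 in Col-0. With library size alone, 7 members were lower in *ros1-4*, against 18.7% of all genes, and 6 were lower in Col-0, against 23.5% of all genes. Without replicate 3 of Col-0 at stage II all 9 members still passed in Col-0. HAI1 passed the filter on low counts only through the mature seeds, where it is high.

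AHG1 fell steeply. It had 212, 244 and 276 counts in *ros1-4* libraries of stage II, against 8898, 8319 and 8698 in mature *ros1-4* seeds. In Col-0 it had 896, 1263 and 333 counts at stage II, against 8155, 8235 and 8652 in mature seeds. No stage II library came near a mature one, and the Col-0 libraries of stage II differed among themselves, with replicate 3 lowest. The log2 fold change of AHG1 was -6.62 (SE 0.11, adjusted p = 1.42e-15) in *ros1-4* and -4.31 (SE 0.41, adjusted p = 4.64e-06) in Col-0. With library size alone it was -5.26 in *ros1-4* and -3.34 in Col-0. Leaving out replicate 3 of Col-0 at stage II gave -3.92 in Col-0.

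The 3 HAI genes and ABI2 fell as well. HAI1 had 2, 0 and 0 counts at stage II in *ros1-4*, against 106, 90 and 78 in mature seeds, and 1, 0 and 0 counts at stage II in Col-0, against 97, 92 and 82 in mature seeds. With the stage II libraries set at a floor of 3 counts each, HAI1 was at least 84.1-fold lower in *ros1-4* and at least 59.7-fold lower in Col-0 at stage II, or by library size at least 33.0-fold lower in *ros1-4* and at least 30.5-fold lower in Col-0. HAI2 had 151, 152 and 166 counts at stage II in *ros1-4*, against 1449, 1261 and 1585 in mature seeds (log2 fold change -4.67, SE 0.10, adjusted p = 1.44e-14). In Col-0 it had 160, 165 and 77 counts at stage II, against 1411, 1451 and 1281 in mature seeds (-4.35, SE 0.22, adjusted p = 5.01e-08). HAI3 changed by -4.95 (SE 0.15) in *ros1-4* and by -3.75 (SE 0.18) in Col-0 on the log2 scale. The stage II and mature libraries of the 3 HAI genes did not overlap in either genotype, nor did they with library size. ABI2, the closest relative of ABI1, had 152, 175 and 183 counts at stage II in *ros1-4*, against 529, 544 and 541 in mature seeds (-3.14, SE 0.09, adjusted p = 2.02e-13), and 77, 68 and 58 counts at stage II in Col-0, against 600, 575 and 526 in mature seeds (-4.05, SE 0.12, adjusted p = 1.68e-09).

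ABI1 rose while its paralog fell. It had 1566, 1626 and 1675 counts at stage II in *ros1-4*, against 117, 121 and 138 in mature seeds. In Col-0 it had 1082, 850 and 950 counts at stage II, against 191, 207 and 184 in mature seeds. Every stage II library exceeded every mature library of its genotype. The log2 fold change of ABI1 was 2.22 (SE 0.08, adjusted p = 3.08e-12) in *ros1-4* and 1.32 (SE 0.10, adjusted p = 9.86e-07) in Col-0, or 3.58 in *ros1-4* and 2.29 in Col-0 with library size alone. Per length, the ratio of ABI1 to ABI2 was 9.27 to 10.5 in *ros1-4* libraries of stage II, against 0.22 to 0.26 in mature seeds, and 12.7 to 16.7 in Col-0 at stage II, against 0.32 to 0.36 in mature seeds.

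AHG3, HAB1 and HAB2 fell less than AHG1, ABI2 and the HAI genes, and for the HAB genes the call could turn with the scaling. AHG3 fell in both genotypes by either scaling, with a log2 fold change of -1.87 (SE 0.10) in *ros1-4* and -1.76 (SE 0.14) in Col-0, or -0.51 in *ros1-4* and -0.78 in Col-0 with library size alone. HAB1 had 312, 304 and 313 counts at stage II in *ros1-4*, against 524, 604 and 561 in mature seeds, with a log2 fold change of -2.34 (SE 0.08) and of -0.98 by library size. In Col-0 HAB1 had 623, 614 and 384 counts at stage II, against 657, 654 and 644 in mature seeds, with a log2 fold change of -1.26 (SE 0.16, adjusted p = 4.95e-05) by TMM that with library size alone was -0.29 (adjusted p = 0.128). HAB2 was lower at stage II by TMM, with -1.17 (SE 0.07) in *ros1-4* and -0.74 (SE 0.11) in Col-0, but by library size its sign turned, to 0.19 in *ros1-4* (adjusted p = 0.0281) and 0.24 in Col-0 (adjusted p = 0.0748). On the TPM scale HAB2 averaged 19.7 ± 0.79 at stage II in *ros1-4*, against 15.6 ± 0.32 in mature seeds, and 22.3 ± 3.0 at stage II in Col-0, against 17.1 ± 1.0 in mature seeds.

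**Figure D4:**
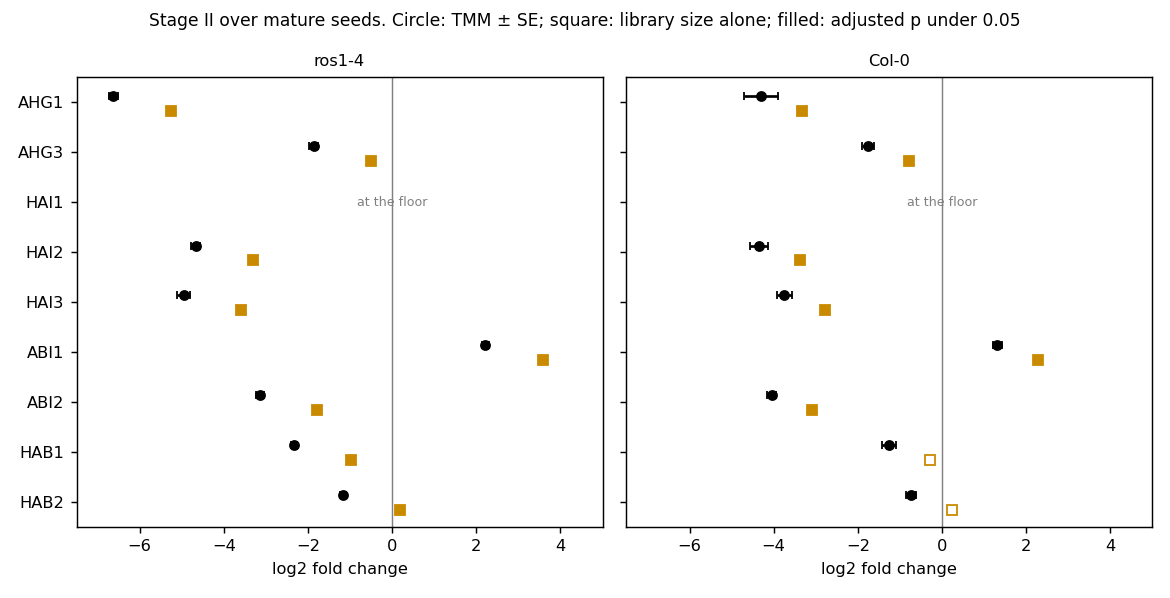
Log2 fold change of stage II over mature seeds for each member, in *ros1-4* (left) and Col-0 (right), with circles for TMM scaling (bars: standard error), squares for library size alone and filled symbols for adjusted p under 0.05. HAI1, at the floor at stage II, has no symbol. AHG1, HAI2, HAI3 and ABI2 lie left of 0 and ABI1 right of 0 by either scaling, whereas HAB2 changes side.

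From stage II to stage IV the changes were smaller. The stage II libraries also served the comparison with mature seeds, so the values of both steps share libraries. HAI1 was not tested here, since its counts were 1, 0 and 4 in *ros1-4* and 0, 0 and 2 in Col-0 at stage IV. In *ros1-4*, 5 of 8 members tested passed, 2 higher and 3 lower at stage IV, where 39.9% of all genes passed, 20.7% higher and 19.2% lower. In Col-0, 5 of 8 passed, 1 higher and 4 lower, where 38.7% of all genes passed, 21.8% higher and 16.8% lower. The median of the members was -0.22 in *ros1-4* and -0.52 in Col-0, against medians over all genes tested of -0.012 in *ros1-4* and -0.013 in Col-0.

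HAI2 had 75, 77 and 78 counts at stage IV in *ros1-4*, against 151, 152 and 166 at stage II (log2 fold change -1.01, SE 0.12, adjusted p = 0.000219), and 34, 49 and 63 counts at stage IV in Col-0, against 160, 165 and 77 at stage II (-1.47, SE 0.35, adjusted p = 0.015). HAI3 was lower at stage IV by -1.43 (SE 0.27, adjusted p = 0.00297) in *ros1-4* and by -2.10 (SE 0.52, adjusted p = 0.017) in Col-0, and AHG3 by -0.42 (SE 0.10, adjusted p = 0.011) in *ros1-4* and -0.73 (SE 0.16, adjusted p = 0.0115) in Col-0. In Col-0 the adjusted p of HAI2 was 0.0541 without replicate 2 of stage II and 0.0564 without replicate 2 of stage IV, and that of HAI3 was 0.0589 without replicate 1 of stage II. In *ros1-4* the adjusted p of AHG3 was 0.0516 and 0.0542 without replicate 2 and without replicate 3 of stage II.

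AHG1 had 139, 147 and 307 counts at stage IV in *ros1-4*, against 212, 244 and 276 at stage II, and the groups overlapped (log2 fold change -0.29, SE 0.26, adjusted p = 0.411). Without replicate 3 of *ros1-4* at stage IV, the library with 307 counts, it was -0.75 (adjusted p = 0.000788). In Col-0 AHG1 had 67, 94 and 139 counts at stage IV, against 896, 1263 and 333 at stage II (-3.06, SE 0.51, adjusted p = 0.00441), and without replicate 3 of stage II it was -3.45 (adjusted p = 0.00025). ABI1 had 1662, 1461 and 2054 counts at stage IV in Col-0, against 1082, 850 and 950 at stage II (0.84, SE 0.14, adjusted p = 0.00474). In *ros1-4* ABI1 had 2254, 2171 and 1571 counts at stage IV, against 1566, 1626 and 1675 at stage II, and its call (0.32, SE 0.11, adjusted p = 0.0487) was lost with library size (adjusted p = 0.0593) and in 5 of 6 fits without a library, all but that without replicate 3 of stage IV, with adjusted p between 0.101 and 0.144. HAB1 was higher at stage IV in *ros1-4* (0.32, SE 0.08, adjusted p = 0.0105) and was not called in Col-0 (-0.30, SE 0.19, adjusted p = 0.243). In Col-0 without replicate 3 of stage II, HAB1 (-0.50, adjusted p = 0.012) and HAB2 (-0.36, adjusted p = 0.0129) were called lower, and without replicate 1 of stage IV, ABI2 was called higher (adjusted p = 0.00532), against 0.89 (adjusted p = 0.0716) with all libraries.

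The genotypes were compared at each stage to ask whether the members differ where ROS1 is mutated. In mature seeds 4 of 9 members passed, where 26.8% of all genes passed, and all 4 were higher in *ros1-4*, as were 13.8% of all genes. They were AHG1 (log2 fold change 0.37, SE 0.07, adjusted p = 0.00103), HAI2 (0.37, SE 0.09, adjusted p = 0.00506), ABI2 (0.24, SE 0.08, adjusted p = 0.0361) and HAB2 (0.23, SE 0.08, adjusted p = 0.0408). None of these 4 calls stood with library size alone, where AHG1 was at 0.031, HAI2 at 0.033, ABI2 at -0.095 and HAB2 at -0.11. By library size ABI1 (-0.65, adjusted p = 0.000764), AHG3 (-0.29, adjusted p = 0.0279) and HAB1 (-0.23, adjusted p = 0.038) were called lower in *ros1-4*, as were 48.8% of all genes. ABI1 had 117, 121 and 138 counts in mature *ros1-4* seeds, against 191, 207 and 184 in mature Col-0 seeds, which did not overlap, and by TMM it was at -0.31 (SE 0.12, adjusted p = 0.0696). ABI1 was thus the member whose sign below 0 held by either scaling, although its call did not. AHG1, with 8898, 8319 and 8698 counts in *ros1-4* and 8155, 8235 and 8652 in Col-0, overlapped as counted. The sum of the storage markers given above was higher in the *ros1-4* libraries, but 2 cruciferin genes overlapped between the genotypes. CRA1 had 47730 to 53430 CPM in *ros1-4* and 52940 to 55050 CPM in Col-0, and CRU3 78130 to 97610 CPM in *ros1-4* and 79330 to 83550 CPM in Col-0. The part of the storage markers in the calls was not tested. Without a library, the ABI2 call was lost in 4 of 6 fits (each Col-0 replicate and *ros1-4* replicate 1, adjusted p 0.0539 to 0.164) and the HAB2 call in 3 of 6 (Col-0 replicates 1 and 2 and *ros1-4* replicate 1, adjusted p 0.116 to 0.141), and HAI3, at 0.24, was called without *ros1-4* replicate 2 (0.32, adjusted p = 0.0173). The median of the 9 members was 0.24, against -0.0075 over all genes tested.

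At stage II 5 of 8 members tested passed, where 22.6% of all genes passed. ABI1 and ABI2 were higher in *ros1-4*, as were 11.4% of all genes, and AHG1, HAB1 and HAI3 were lower, as were 11.1%. ABI2 had 152, 175 and 183 counts in *ros1-4*, against 77, 68 and 58 in Col-0 (log2 fold change 1.15, SE 0.14, adjusted p = 0.00134). ABI1 had 1566, 1626 and 1675 counts in *ros1-4*, against 1082, 850 and 950 in Col-0 (0.58, SE 0.08, adjusted p = 0.00205). For neither gene did the groups overlap, and both calls stood by library size and without any 1 library. HAB1 had 312, 304 and 313 counts in *ros1-4*, against 623, 614 and 384 in Col-0 (-0.98, SE 0.18, adjusted p = 0.0067), again with no overlap and with its call kept without any 1 library.

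AHG1 had 212, 244 and 276 counts in *ros1-4*, against 896, 1263 and 333 in Col-0 (-1.95, SE 0.43, adjusted p = 0.0148). The groups did not overlap, but Col-0 replicate 3 lay close to the *ros1-4* libraries. Without that replicate AHG1 was at -2.33 (adjusted p = 2.47e-07), and without any 1 *ros1-4* library its adjusted p was 0.0557 to 0.0707. HAI3 had 42, 41 and 67 counts in *ros1-4*, against 122, 78 and 62 in Col-0, which overlapped (-0.98, SE 0.29, adjusted p = 0.0478). Its call was lost with library size (adjusted p = 0.0597) and in 5 of 6 fits without a library (adjusted p 0.0504 to 0.157), and it stood only without Col-0 replicate 3 (-1.18, adjusted p = 0.00246). AHG3 (-0.081), HAI2 (0.041) and HAB2 (-0.22) were not called, although HAB2 passed without Col-0 replicate 3 (-0.33, adjusted p = 0.00213). The median of the members tested was -0.15, against -0.0014 over all genes. The sum of the storage markers was higher in these *ros1-4* libraries too, at 1703 to 2529 CPM against 239 to 340 CPM in Col-0. So was the sum of the 3 markers of leaf photosynthesis, at 5905 to 5943 CPM in *ros1-4* and 4847 to 5388 CPM in Col-0. Among them CAB1 was higher in *ros1-4*, with 1110 to 1322 CPM against 289 to 387 CPM in Col-0. The other markers of this sum, RBCS1A and RBCS3B, overlapped between the genotypes. The 4 markers of germinating seed went the other way in sum, at 31500 to 32250 CPM in *ros1-4* and 34060 to 37080 CPM in Col-0. Of these, ICL and MLS were lower in *ros1-4*, and EXPA2 and EXPA3 overlapped between the genotypes. The part of all these markers in the differences was not tested.

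At stage IV none of 8 members tested passed in edgeR or in DESeq2, where 8.22% of all genes passed in edgeR. In edgeR 3 members had an unadjusted p under 0.05. The share of all genes at that unadjusted threshold is not given here, so this count shows no excess. AHG1 had 139, 147 and 307 counts in *ros1-4*, against 67, 94 and 139 in Col-0 (log2 fold change 0.88, SE 0.37, adjusted p = 0.178). ABI1 was at 0.10 (SE 0.17) and ABI2 at 0.32 (SE 0.29), with ABI2 at 174, 171 and 166 counts in *ros1-4* and 67, 139 and 172 in Col-0, where replicate 1 lay apart. HAB1 (-0.31, SE 0.11, adjusted p = 0.113) was called without Col-0 replicate 1 (-0.40, adjusted p = 0.0498). The median of the members was 0.19, against 0.0069 over all genes.

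**Figure D5:**
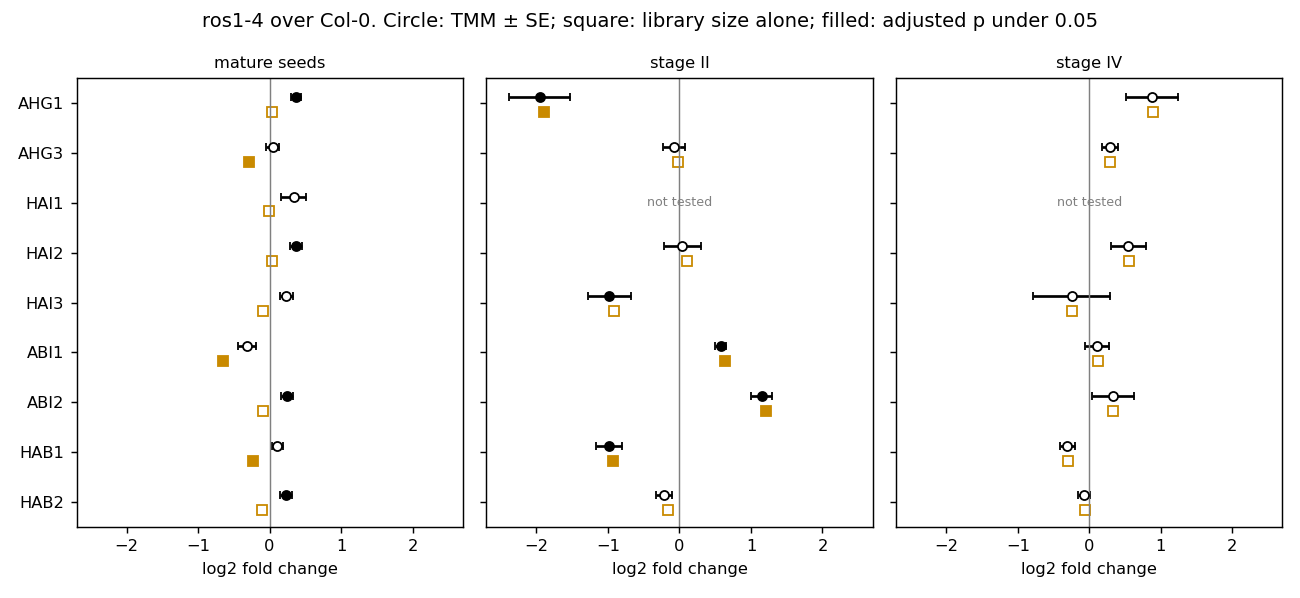
Log2 fold change of *ros1-4* over Col-0 for each member in mature seeds and at both germination stages, with circles for TMM scaling (bars: standard error), squares for library size alone and filled symbols for adjusted p under 0.05. In mature seeds all squares lie left of their circles by about the -0.34 shift of all genes, at stage II ABI1 and ABI2 lie right and AHG1, HAB1 and HAI3 left of 0, and at stage IV no symbol is filled.

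The change from mature seeds to stage II itself differed between the genotypes for several members. The difference of the log2 changes, *ros1-4* minus Col-0, passed for 6 of 9 members, where 19.7% of all genes passed. It was 0.88 for ABI1 (SE 0.13, adjusted p = 0.000341) and 0.89 for ABI2 (SE 0.15, adjusted p = 0.000766), that is a larger rise of ABI1 and a smaller fall of ABI2 in *ros1-4*. It was -2.34 for AHG1 (SE 0.43, adjusted p = 0.0015), -1.10 for HAB1 (SE 0.19, adjusted p = 0.0011), -1.23 for HAI3 (SE 0.28, adjusted p = 0.0066) and -0.46 for HAB2 (SE 0.14, adjusted p = 0.0268), that is larger falls in *ros1-4* by TMM. With library size alone, which moved the median of all genes by 0.40, 5 members passed against 41.1% of all genes, and HAB2 was at -0.050 (adjusted p = 0.822). The HAB2 call was also lost in 9 of 12 fits without a library (adjusted p 0.0528 to 0.0856), all but those without Col-0 mature replicate 3, Col-0 stage II replicate 3 and *ros1-4* stage II replicate 3. Without Col-0 stage II replicate 3, AHG1 was at -2.72 and HAI2 was called as well (-0.63, adjusted p = 0.00608). HAI1 was at the floor at stage II in both genotypes, and its difference is not given. These values rest on the same libraries as the comparisons of the genotypes and of the stages.

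Several members are annotated with more than 1 transcript, and 50-base reads divide poorly among such transcripts. HAB1 has 5 transcripts, of which AT1G72770.1, AT1G72770.2 and AT1G72770.4 held its counts in every library but 2 of mature Col-0 seeds, where others held up to 11.6%. AT1G72770.1 and AT1G72770.4 code for the same length of 511 residues, whereas AT1G72770.2, with 4 exons and the longest mature RNA of the 3, codes for 406. The share of AT1G72770.4 was 42.6% to 64.7% in mature *ros1-4* seeds and 47.8% to 55.1% in mature Col-0 seeds, 6.51% to 28.5% in *ros1-4* and 16.0% to 35.6% in Col-0 at stage II, and 11.7% to 43.5% in *ros1-4* and 5.14% to 30.2% in Col-0 at stage IV. AT1G72770.1 made up 23.2% to 36.4% of the HAB1 counts in mature *ros1-4* seeds and 32.5% to 39.3% in mature Col-0 seeds, and 51.1% to 66.5% in *ros1-4* and 48.7% to 64.6% in Col-0 at stage II. Mature and stage II libraries did not overlap for either transcript. The shorter-coding AT1G72770.2 had 10.4% to 22.0% in mature *ros1-4* seeds and 0% to 17.8% in mature Col-0 seeds, and 15.6% to 27.0% in *ros1-4* and 14.3% to 19.4% in Col-0 at stage II, and these ranges overlapped. HAB2 was split between AT1G17550.1 and AT1G17550.2, both coding for 511 residues. AT1G17550.1 took 87.1% to 100% in *ros1-4* at stage II, against 47.3% to 59.9% in mature *ros1-4* seeds, and 60.1% to 92.2% in Col-0 at stage II, against 48.6% to 77.6% in mature Col-0 seeds. The split of AHG1 was not stable between replicates: AT5G51760.2 took 0, 1907 and 2279 counts in mature *ros1-4* seeds and 737, 1342 and 1040 in mature Col-0 seeds. The few HAI1 counts of germination fell on AT5G59220.2, whereas AT5G59220.1 held 81.6% to 100% of them in mature seeds. These shares are estimates with no test, and the genes with a single transcript also held fractional counts, with 34 of 72 values within 0.001 of a whole number, so some reads were shared with other genes.

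The other genes of the pathway were read from lists chosen with earlier results of these data known, and their counts support nothing about the members. They stand beside all genes tested, of which 50.3% rose and 39.3% fell at stage II in *ros1-4* and 47.3% rose and 41.0% fell in Col-0, or by library size 73.8% and 18.7% in *ros1-4* and 66.1% and 23.5% in Col-0. List genes at the floor in a group passed the filter on low counts only through the group where they are high, which fixed their direction. In this step these were 2 receptors and 1 regulator in each genotype. They also were 1 kinase and 1 factor in *ros1-4*, and 2 kinases, 2 factors and 1 ABA-responsive gene in Col-0. Among the PYR/PYL receptors, 6 of 12 tested rose and 6 fell at stage II in *ros1-4*, with a median log2 fold change of 0.28, and likewise 6 and 6 in Col-0, with a median of 0.26. By library size it was 7 and 5 in *ros1-4* and 6 and 4 in Col-0. PYL6 had 665, 709 and 776 counts at stage II in *ros1-4*, against 0, 3 and 4 in mature seeds, and 283, 255 and 461 counts at stage II in Col-0, against 2, 2 and 0. PYL12 had 0, 2 and 0 counts at stage II in *ros1-4*, against 92, 69 and 113 in mature seeds, and 0 in each stage II library of Col-0, against 112, 88 and 101. Among the SnRK2 kinases, which the phosphatases switch off, 5 of 10 rose and 4 fell in *ros1-4*, and 5 rose and 5 fell in Col-0, or 7 and 2 in *ros1-4* and 7 and 3 in Col-0 by library size. SnRK2.7 had 74, 69 and 74 counts at stage II in *ros1-4*, against 0 in each mature library, and 129, 100 and 65 in Col-0, against 0 in each. SnRK2.9 was lower, with 1, 5 and 2 counts at stage II in *ros1-4*, against 16, 20 and 21 in mature seeds. In Col-0 SnRK2.9 had 0, 1 and 0 counts at stage II, against 42, 26 and 27 in mature seeds. OST1, the kinase through which ABA closes stomata, rose by 4.50 in *ros1-4* and 3.55 in Col-0. SnRK2.5, uncertain because it overlaps a gene on the opposite strand, rose by 5.61 in *ros1-4* and 4.27 in Col-0. The medians of the kinases were 1.52 in *ros1-4* and 1.15 in Col-0.

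Of the transcription factors under ABA, 3 of 10 rose and 7 fell at stage II in *ros1-4*, and 2 rose and 7 fell in Col-0, or 5 and 5 in *ros1-4* and 3 and 6 in Col-0 by library size. Their medians were -1.51 in *ros1-4* and -1.87 in Col-0. ABI5, a bZIP factor that arrests growth after germination, had 749, 746 and 827 counts at stage II in *ros1-4*, against 8305, 8298 and 6945 in mature seeds (log2 fold change -4.82), and 1264, 1474 and 426 in Col-0, against 6948, 6924 and 7695 (-3.75). As with AHG1, Col-0 replicate 3 was the lowest of its stage. ABF3 had 574, 577 and 555 counts at stage II in *ros1-4*, against 0 in each mature library, and 1467, 1434 and 815 in Col-0, against 2, 3 and 2, and it overlaps a gene on the opposite strand by 24 bases. The list of regulators of the phosphatases also holds RDO5, a phosphatase relative. Of its genes 1 rose and 8 of 10 fell at stage II in *ros1-4*, with a median of -1.43. In Col-0 1 rose and 9 fell, with a median of -1.41. By library size it was 4 and 5 in *ros1-4* and 3 and 5 in Col-0. DOG1 had 2 counts in each *ros1-4* library of stage II, against 771, 674 and 836 in mature seeds, and 0 in each Col-0 library of stage II, against 566, 523 and 470. The ABA-responsive genes EM1, EM6, RAB18 and RD29B were among the 6 of 9 that fell at stage II in each genotype, by either scaling, with a list median of -3.75 in *ros1-4* and -3.21 in Col-0. The other 3, KIN1, KIN2 and RD22, rose in each genotype by either scaling. KIN2 had 806, 943 and 961 counts at stage II in *ros1-4*, against 14, 2 and 12 in mature seeds. In Col-0 KIN2 had 3299, 2530 and 947 counts at stage II, against 7, 5 and 6 in mature seeds. At stage IV against stage II, where 20.7% of all genes rose and 19.2% fell in *ros1-4* and 21.8% rose and 16.8% fell in Col-0, 1 of 10 receptors fell in *ros1-4*, and 2 rose and 1 fell in Col-0. Of 9 kinases, 5 rose and 1 fell in *ros1-4*, and 1 rose and 1 fell in Col-0. Of 9 factors, 3 rose and 6 fell in *ros1-4*, and 5 fell in Col-0. Without replicate 3 of Col-0 at stage II, 4 receptors rose and 1 fell, 2 kinases rose and 1 fell, and 7 factors fell in Col-0. The shares of all genes given here belong to the fit with all libraries, and that of the fit without replicate 3 is not given. ABI5 fell further, by 0.66 in *ros1-4* and by 2.54 in Col-0, and stood at -2.93 in Col-0 without that replicate.

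Between the genotypes in mature seeds, where 13.8% of all genes were higher and 13.0% lower in *ros1-4*, 2 receptors were higher and 1 lower in *ros1-4* of 11 tested, 1 kinase was higher and 2 lower of 9, 2 transcription factors were higher and 2 lower of 9, and 2 of 10 regulators were higher. The medians were 0.085 for the receptors, -0.42 for the kinases, 0.18 for the transcription factors and 0.075 for the regulators. DOG1 was higher in *ros1-4* by 0.87 (SE 0.10, adjusted p = 8.52e-06), and by 0.53 with library size. Of the ABA-responsive genes 5 of 7 were higher in *ros1-4*, with a median of 0.70, led by RAB18 (0.75), EM1 (0.71), RD26 (0.70) and EM6 (0.67), and with library size these 4 stood at 0.41, 0.37, 0.37 and 0.33. By library size the counts of the other lists shifted to 1 higher and 6 lower for the receptors and the kinases alike, 0 and 4 for the transcription factors and 1 and 4 for the regulators, where 3.02% of all genes were higher and 48.8% lower. At stage II 11.4% of all genes were higher and 11.1% lower in *ros1-4*. There 2 receptors were higher and 1 lower of 10 tested, and 2 kinases were higher and 3 lower of 9. Of 9 factors 2 were higher and 3 lower, and of 9 regulators 1 was higher and 1 lower. Of 9 ABA-responsive genes 1 was higher and 2 lower. Without Col-0 replicate 3, 6 receptors were higher and 1 lower, 3 kinases higher and 4 lower, and 2 factors higher and 4 lower. The regulators stayed at 1 higher and 1 lower, and 1 ABA-responsive gene was higher and 5 lower. The share of all genes in the fit without that replicate is not given here. The largest called difference in the lists was that of ABF1, with 448, 380 and 375 counts in *ros1-4* and 24, 30 and 18 in Col-0 (3.88), although ABF1 overlaps 2 genes on the opposite strand and is uncertain, as is PYL7. ABF3 (-1.30) and KIN2 (-1.50) were lower. Also at stage II, RD29B had 725, 891 and 757 counts in *ros1-4* and 3600, 4198 and 1109 in Col-0 (-2.09, or -2.49 without Col-0 replicate 3), RDO5, a phosphatase relative that promotes seed dormancy, was higher (0.99), and PYL7 was higher (1.60) and PYL11 lower (-1.37). At stage IV, where 8.22% of all genes passed, 1 receptor (PYL1, -0.71), 1 kinase (SnRK2.2, 0.34) and 2 factors (ABI3, 0.71, and ABI4, 0.64) passed, and the medians were 0.096 for the receptors, 0.022 for the kinases and 0.54 for the factors.

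Across the 18 libraries, the members fell into ABI1 and the rest by TMM scaling. On log2(CPM + 0.5) values scaled by TMM, the Pearson correlation of ABI1 with the other 8 was -0.85 to -0.98, and every pair among the other 8 correlated at 0.85 to 0.99. The points share their stage and their scaling, so these values restate the step from mature to germinating seeds. They were not computed with library size alone. By that scaling HAB2 was on the side of ABI1 at stage II against mature seeds, at 0.19 in *ros1-4* and, not called, at 0.24 in Col-0. The genes closest to ABI1 among 17786 genes were AT5G20740 (0.994) and the photosynthesis genes CAB1 (0.99) and PETE1 (0.99), and 1851 genes reached 0.95. The closest to AHG1 were AT4G39130 (0.998), AT4G36700 (0.997) and AT1G02700 (0.997), with 2396 genes at 0.95 or more. HAB1 had the fewest such genes, 364, led by AT5G57610 (0.989), LON2 (0.985) and ASG1 (0.984). With a pseudocount of 2 in place of 0.5, 15 of the 27 closest genes were the same. The closest genes were AT5G39590, LZF1 and AT1G60680 for ABI2 (0.99 to 0.992), AT5G10730, AT3G62590 and BTI1 for HAB2 (0.989 each), RTNLB13, AT2G32415 and AT3G27870 for AHG3 (0.991 to 0.992), NRT1.5, AT2G31985 and AT4G29790 for HAI1 (0.998 to 0.999), AT2G38465, CYP702A6 and RTNLB13 for HAI2 (0.997 to 0.998), and AT1G78780, AT5G56100 and AT1G07985 for HAI3 (0.989 to 0.991).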

How the data were processed

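RNA of entire seeds was sequenced by the authors as single-end reads and quantified with Salmon on the Araport11 transcriptome, per the study's methods. The authors deposited estimated counts per transcript, normalized for neither depth nor length, and pooled no replicates. Whether strand was used in counting is not given in the sources used here. Estimated counts were summed to 27587 genes by identifier and rounded, and 27392 of these matched RefSeq's gene table. The table held 0 columns of other samples.

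The libraries of each comparison (12 for the difference between the genotypes' changes) were fitted with edgeR 4.0.16 in R 4.3.3: TMM, filterByExpr, the two-sided quasi-likelihood test and Benjamini-Hochberg adjustment over all genes tested, with calls at an adjusted p under 0.05. The fit was tested on simulated data. There the groups shared 1 composition apart from the genes set to change, and no replicate stood apart. That test therefore does not bear on the scaling or on replicate 3 of Col-0 at stage II. DESeq2 1.42.0, library size alone, other size factors, no filter, all 18 libraries in one fit, a replicate block, a threshold of 0.01 and leaving out each library were tried as alternatives. Effective lengths for the shares were added after seeing the data. TPM used the annotated lengths in the table. Proteins were aligned with MAFFT 7.526, and motifs, loci and upstream windows come from RefSeq TAIR10.1. A group with at most 3 counts in each library was taken as at the floor. No counting interval is given, since error is shown by the spread of 3 replicates, and PCR duplicates are not marked. The study names its replicates biological, and the labels do not say how they were separated, so p-values measure the spread between these libraries.

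The 9 members, the ROS1 check, the pathway lists (5, with at most 4 called genes named by size per comparison) and the 3 closest genes of each member were named by rule. The members and lists were chosen with earlier results of these data known.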

Additional observations from a re-analysis of the deposited data

Results flagged for a closer look

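For 6 members the change from mature seeds to stage II differed between the genotypes by the test of the difference itself, given as the log2 change in the libraries labelled *ros1-4* minus that in the libraries labelled Col-0. ABI1 had 0.88 and ABI2 had 0.89. AHG1 had -2.34, HAB1 had -1.10, HAI3 had -1.23 and HAB2 had -0.46. With library size alone HAB2 was at -0.050 (adjusted p = 0.822 in edgeR), and its call was also lost in 9 of 12 fits without a library.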

How the results depend on the processing

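Over the alternatives, 780 of 870 member values kept their direction and side of the threshold, 54 lost the call, 13 gained one, 6 that were called with or without the alternative turned sign, all 6 with library size alone, and 17 turned sign without passing the test either way. Among the 6, in mature seeds, *ros1-4* against Col-0, were ABI2 (-0.095), HAB1 (-0.229), HAB2 (-0.106) and AHG3 (-0.293), and for stage II against mature seeds HAB2 in *ros1-4* (0.187) and in Col-0 (0.237). That scaling also moved the median of all genes in these comparisons. Of the 17, 4 came with library size alone: HAI3 (-0.098) and HAI1 (-0.004) between the genotypes in mature seeds, and AHG3 (0.272) and HAI2 (0.069) in the difference between the genotypes' changes. The other 13 came without 1 library, among them HAI2 between the genotypes at stage II without Col-0 replicate 3 (-0.24). Of 110 counts of called members, 91 stayed within 1.5 times. In mature seeds, the 4 members called between the genotypes became 2 with the DESeq2 Wald test, without a filter on low counts, with a replicate block and at an adjusted p under 0.01, 0 with all 18 libraries in one fit, and 2 to 5 without 1 library. At stage II the 5 called became 3 at 0.01 and 3 to 6 without 1 library, and at stage IV the count of 0 became 1 with the replicate block and 0 to 1 without 1 library. For stage IV against stage II, the 5 called in *ros1-4* became 3 with all 18 libraries, 2 at 0.01 and 3 to 6 without 1 library, and the 5 in Col-0 became 2 at 0.01 and 4 to 7 without 1 library. The 6 differences between the genotypes' changes became 5 to 7 without 1 library. The cause of these changes was not tested.

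Same-numbered libraries did not deviate together (correlations -0.166 to 0.187), so the numbers were not taken as pairs. With the replicate block the calls between the genotypes were 2 for mature seeds, 4 for stage II and 1 for stage IV, 9 in each genotype for stage II against mature seeds, 4 in *ros1-4* and 5 in Col-0 for stage IV against stage II, and 6 for the difference of the changes. At stage IV the call gained was AHG1 (0.85, adjusted p = 0.0437). With effective lengths, the median share of AHG1 in mature seeds was 68.5% in *ros1-4* and 66.0% in Col-0. Counts of HAI1 at germination and the split among transcripts are limited by depth and read length.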
